A study of Canis lupus familiaris with 22 samples.

Results

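The comparison described here set the macular retina of dogs against the peripheral retina of the same animals. Its 8 libraries, 4 from each region, were chosen by their labels alone out of 22 in the series, and they came from 4 dogs (18-2, 18-6, 18-7 and 18-9) that each gave 1 macular and 1 peripheral retina sample from the same eye. Dog 18-2 was a male pitbull mix of an estimated 2 to 3 years and dog 18-6 a male mastiff mix of 3 to 5 years, both sampled in the left eye. Dog 18-7 was a female pitbull mix of 3 to 5 years and dog 18-9 a female boxer mix of 2 to 3 years, both sampled in the right eye. Sex and eye side therefore cannot be told apart, and each dog served as its own control for both. None of the labels gives a treatment, a disease or an engineered allele for these animals, and where in the eye each piece was cut is not given in the sources used here. The 4 dogs also gave 8 libraries of RPE/choroid (retinal pigment epithelium with the vascular layer behind it), used below only to place genes by tissue.

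The retina is the sheet of photoreceptors, interneurons, ganglion cells and glia that lines the back of the eye. The macula is its central region, specialised for acute vision. The dog has no foveal pit, but its central retina holds an area of densely packed cones and ganglion cells, and inherited maculopathies of humans have counterparts there. In bulk RNA a lower level of a transcript in one region can come from fewer cells of a type or from less RNA per cell, and these cannot be told apart.

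The count files name genes only by Ensembl identifier. Of 30951 identifiers, 0 matched a symbol in the reference table at hand, so the markers of rods, cones, ganglion cells and glia could not be read, and the tissue labels could not be checked against named markers. Single genes are given by identifier, 2 in each direction, and gene groups by tissue and abundance.

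Library totals ran from 4664101 to 6788365 counts, and the macular library was the deeper of the pair in 4 of 4 dogs, by 1.03-fold (dog 18-9) to 1.21-fold (dog 18-2). Counts were spread evenly over many genes. The most abundant identifier of a library held 933 to 1054 CPM (counts divided by the library total and scaled to the usual CPM unit), the 100 most abundant together held 4.91% to 5.62% of all counts, and the identifier at rank 5000 still had 71.2 to 72.7 CPM. Such a flat distribution is unusual for retina, where single photoreceptor transcripts commonly take a far larger share of the reads. Removal of duplicate reads before counting would lower abundant genes most and shrink their fold changes, and whether it was done is not given in the sources used here. Its part in the values was not tested. The RNA most typical of RPE/choroid was also read in the retina libraries. For the 200 genes with the highest RPE/choroid-to-retina ratio, a list chosen partly on these libraries, the summed level was 71.4 to 113 CPM in macular retina and 75.2 to 222 CPM in peripheral retina, against 8687 to 12732 CPM in RPE/choroid. In single retina libraries, 69 to 109 of the 200 had no count. Because the list was picked for a low level in retina, these values cannot show how much RPE/choroid RNA the retina libraries held. The 222 CPM belonged to the peripheral library of dog 18-9, while the other 3 peripheral libraries had at most 83.0 CPM. Some counts of calls below are therefore also given without this dog.

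The regions separated along the largest single axis of difference among the 8 libraries. In a principal component analysis of the 14392 genes that passed the low-count filter (log2 CPM), the first component took 34.3% of the variance. On it the macular libraries scored -30.0 to -8.03 and the peripheral libraries 13.4 to 36.3. The regions did not overlap on this axis, and every dog moved the same way from macula to periphery. The pair of dog 18-2 was shifted as a whole towards the peripheral end, with its macular library at -8.03 and its peripheral library at 36.3. The second component, with 19.9%, held the libraries of dogs 18-6 and 18-9 at 7.13 to 22.5 and those of dogs 18-2 and 18-7 at -27.4 to -2.20, and so separated pairs of dogs rather than regions. Across genes, which are not independent replicates, libraries of the same region correlated at 0.962 to 0.978 in the macula and at 0.973 to 0.980 in the periphery, and a dog's own macular and peripheral libraries at 0.966 to 0.976.

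**Figure D1:**
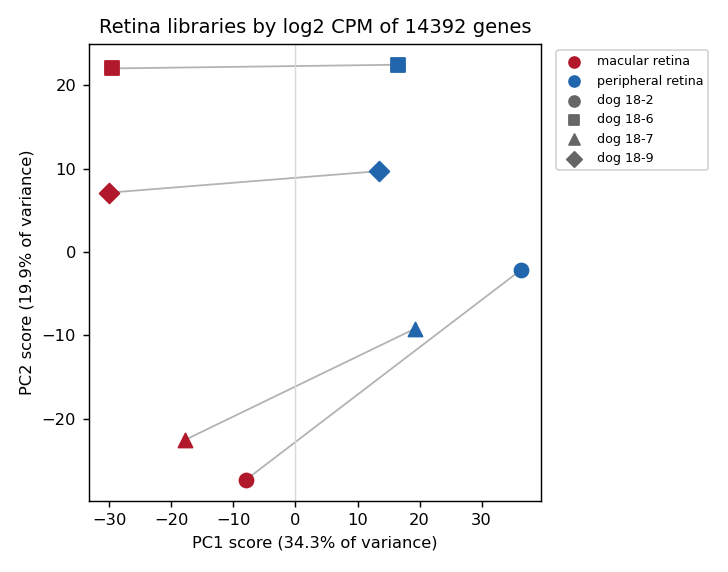
Scores of the 8 retina libraries on the first (x axis) and second (y axis) principal components of log2 CPM, in red for macular and blue for peripheral retina, with a symbol for each dog and a grey line joining its pair. All macular libraries lie left of 0 on the first component, at -8.03 or below, and all peripheral libraries right of it, at 13.4 or above.

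Splitting each gene's sum of squares in log2 CPM gave medians over the 14392 genes of 54.0% for the dog on 3 degrees of freedom, 16.6% for the region on 1 and 15.99% for the rest on 3. Per degree of freedom these medians are 18.0% for the dog, 16.6% for the region and 5.33% for the rest. Comparing the regions within dogs, as done here, removes the dog's share.

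In that paired comparison 1765 genes were higher and 954 lower in the macula, which is 12.3% and 6.63% of the genes tested, or 18.9% in all (edgeR quasi-likelihood test with the dog as block, adjusted p under 0.05, n = 4 dogs). At an adjusted p under 0.01 in the same test, 959 were higher and 331 lower. Among called genes, those higher differed more than those lower. The median log2 fold change was 0.60 among those higher and -0.38 among those lower, and 48.7% of the higher but 70.3% of the lower genes differed by under 1.5-fold. The called lower genes were also more abundant, with a median of 64.1 CPM against 37.8 CPM. Smaller differences were called among abundant genes (below), and the part of abundance in this gap was not tested. A difference of at least 2-fold was reached by 344 higher genes (2.39% of those tested) and 98 lower genes (0.681%), and one of at least 4-fold by 38 and 16. Without the block, 264 and 51 genes differed by at least 2-fold, and 251 and 77 did so by DESeq2. Over all genes tested the log2 fold change had a median of -0.01, with 5% of genes below -0.42 and 5% above 0.74, so the wider tail was on the macular side. All counts of smaller differences rested on the dogs included. The total of 2719 calls became 3765 without dog 18-2, 1706 without dog 18-6, 1519 without dog 18-7 and 1721 without dog 18-9, and 1250 of the 2719 (46%) were called in each of these 4 fits, 926 of them higher and 324 lower.

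The values of all 4 macular libraries lay above those of all 4 peripheral libraries for 1433 genes and below them for 689, which together are 14.7% of the genes tested, against 18.9% called. Among the called genes 70.7% of the higher and 48.2% of the lower had regions that did not overlap. For the others the regions overlapped across dogs although the direction within dogs was shared, as it was in 4 of 4 dogs for 98.9% of the higher and 98.1% of the lower genes. The calls use these same directions, so the last shares describe the calls and do not support them.

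**Figure D2:**
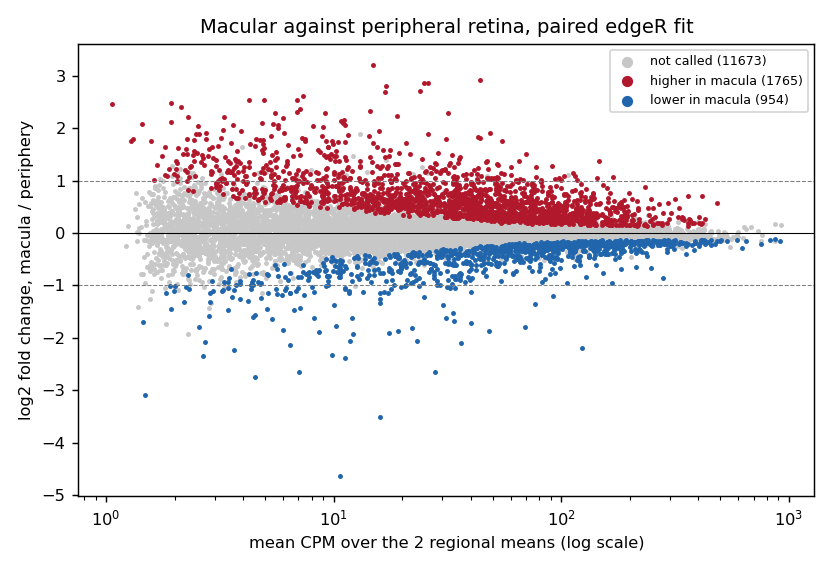
Log2 fold change of macula over periphery (y axis) against mean CPM on a log scale (x axis) for the 14392 genes tested, with genes higher in the macula in red, lower in blue and not called in grey, and dashed lines at a 2-fold difference. The called genes fan out at low abundance, and the upper side holds 344 genes past the dashed line against 98 on the lower side.

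The 2 identifiers with the smallest p among genes that rose at least 2-fold, had a mean of at least 10 CPM and moved alike in all dogs were ENSCAFG00000016501 and ENSCAFG00000015138. ENSCAFG00000016501 had 63.8, 72.3, 71.8 and 61.6 CPM in the macular retina of dogs 18-2, 18-6, 18-7 and 18-9, and 16.6, 19.7, 20.5 and 18.4 CPM in their peripheral retina. The macular values were all more than 60 CPM and the peripheral values all under 21 CPM, with a narrow spread in each region. Its means were 67.4 ± 5.48 and 18.8 ± 1.73 CPM (SD, n = 4 dogs each), and its log2 fold change was 1.84 ± 0.08 (SE, edgeR adjusted p = 5.62e-05), a 3.58-fold difference. It was also present in RPE/choroid, where macular samples had 26.8 ± 4.03 CPM and peripheral ones 13.2 ± 5.65 CPM (SD, n = 4 each). The regional log2 difference there was 1.00 ± 0.17 (SE), smaller than in the retina by 0.85 ± 0.23 on the log2 scale (SE, interaction term in edgeR, adjusted p = 0.0314).

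ENSCAFG00000015138 was the more abundant of the pair. It had 139, 182, 153 and 156 CPM in the macula of dogs 18-2, 18-6, 18-7 and 18-9 but 72.9, 83.4, 74.9 and 79.9 CPM in their periphery. Again no value of one region reached those of the other, and dog 18-6 was highest in both regions. The means were 157 ± 17.8 and 77.8 ± 4.76 CPM (SD, n = 4 each) and the log2 fold change was 1.01 ± 0.05 (SE, edgeR adjusted p = 5.62e-05), with the ratio between 1.90 and 2.18 in every dog. This gene belonged to the retina-preferential class, with 4.02 ± 0.46 and 4.20 ± 2.84 CPM in macular and peripheral RPE/choroid (SD, n = 4 each). The regional difference was larger in the retina by 1.19 ± 0.32 on the log2 scale (SE, interaction in edgeR, adjusted p = 0.0326).

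ENSCAFG00000011211 had the smallest p among the genes that fell by the same criteria. It had 0.442, 0.206, 2.43 and 0.161 CPM in the macula of dogs 18-2, 18-6, 18-7 and 18-9, but 6.24, 4.72, 60.8 and 10.4 CPM in their periphery. The regions did not overlap, yet dog 18-7 stood far above the other dogs in both. The gene met the criterion of a mean of at least 10 CPM only through the 60.8 CPM of that dog's peripheral library. Of the remaining libraries, only the peripheral one of dog 18-9, at 10.4 CPM, was itself above 10 CPM. The macular values rest on 21 counts in all, of which 16 came from dog 18-7, against 493 counts in the periphery. The log2 fold change was -4.63 ± 0.25 (SE, edgeR adjusted p = 5.62e-05). It was -4.58 ± 0.43 without dog 18-7 (SE, edgeR adjusted p = 0.00197). There the macular counts were 3, 1 and 1 in dogs 18-2, 18-6 and 18-9. Both SEs were taken from the fold change and the F statistic. At so few counts they do not measure the counting error, and the fold change is less certain than they show. By DESeq2 the SE was 0.49, so the precision of this fold change depended on the method. Without the block its SE rose to 1.03, and the adjusted p in edgeR was 0.0213. The gene was nearly absent from RPE/choroid, with 6 counts over 8 libraries, too few to measure a regional difference there (log2 fold change -0.31 ± 0.93, SE). The interaction of -4.31 ± 1.26 (SE, edgeR adjusted p = 0.0406) therefore does not show how the regions of RPE/choroid compare for this gene.

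ENSCAFG00000025465 fell less but at a higher level. It had 49.5, 57.5, 43.3 and 23.2 CPM in the macula of dogs 18-2, 18-6, 18-7 and 18-9 but 109.8, 144.7, 119.9 and 65.9 CPM in their periphery. Dog 18-9 was lowest in both regions, and its peripheral value of 65.9 CPM was only just above the highest macular value, so pairing by dog mattered for this gene. The means were 43.3 ± 14.7 and 110.1 ± 32.9 CPM (SD, n = 4 each) and the log2 fold change was -1.35 ± 0.07 (SE, edgeR adjusted p = 5.87e-05), with ratios of periphery to macula from 2.22 to 2.84. RPE/choroid held 19 counts of it over 8 libraries, too few to show whether the regional difference differed there (interaction -0.89 ± 0.88, SE, edgeR adjusted p = 0.516). All 4 identifiers kept their direction and their call in every alternative run. They were picked from these data for a small p and a shared direction in all 4 dogs. Their stability therefore describes the choice and does not support it.

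**Figure D3:**
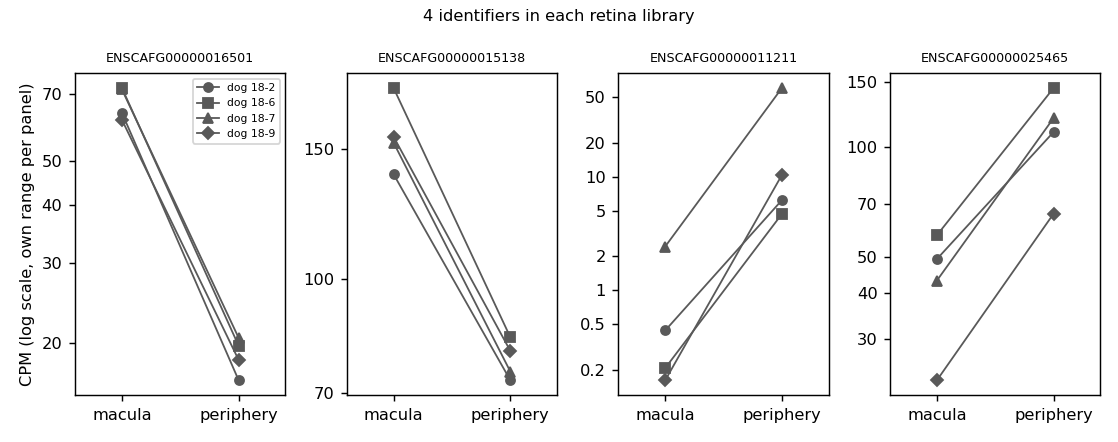
CPM on a log scale (y axis, own range in each panel) of the 4 identifiers in the macular and peripheral retina (x axis) of each dog, with a symbol for each dog and a line joining its pair. Lines fall to the right for ENSCAFG00000016501 and ENSCAFG00000015138 and rise for ENSCAFG00000011211 and ENSCAFG00000025465, and dog 18-7 lies above the others in both regions for ENSCAFG00000011211.

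The balance between directions changed with abundance. Of 5273 genes under 30 CPM, 745 were higher and 279 lower in the macula, whereas of 3298 genes at 100 CPM or more, 297 were higher and 323 lower (edgeR, adjusted p under 0.05). In the range from 10 to 30 CPM 16.4% of 2645 genes were higher and 6.39% lower, from 30 to 100 CPM 12.4% and 6.05% of 5821, and from 100 to 300 CPM 9.11% and 9.21% of 3018. Among the 280 genes at 300 CPM or more, 22 (7.86%) were higher and 45 (16.1%) lower, against 12.3% and 6.63% of all genes tested. The excess of higher genes under 30 CPM was present in each alternative, from 356 against 127 by DESeq2 to 750 against 383 without dog 18-2. It was 394 against 83 without the block, 509 against 153 without dog 18-6, 440 against 128 without dog 18-7 and 463 against 185 without dog 18-9. The excess of lower genes at 300 CPM or more rested on few genes and on the dogs included. It was 22 against 143 without dog 18-2, but 14 against 12 without dog 18-6, 18 against 13 without dog 18-7, 12 against 18 without dog 18-9, 9 against 7 without the block and 15 against 17 by DESeq2.

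Large differences were found almost entirely at low and middle abundance. Of the 442 called genes that differed by at least 2-fold, 360 (81.4%) were under 30 CPM and 8 (1.81%) were at 100 CPM or more, 7 higher and 1 lower. At 300 CPM or more the extreme log2 fold changes were 0.71 and -0.40, and the median SE of a log2 fold change was 0.04, against 0.20 from 3 to 10 CPM. Small differences were thus enough for a call among abundant genes. The median size of a called difference, in log2 units without its sign, was 0.20 at 300 CPM or more and 0.99 from 3 to 10 CPM. The median over all genes of a range, called or not, also declined, from 0.09 at 3 to 10 CPM to -0.07 at 300 CPM or more. Under 3 CPM, where counts were lowest, it was 0.05 over 828 genes, so the decline did not start at the lowest range. In dogs 18-6, 18-7 and 18-9 that decline ran from 0.06, 0.12 and 0.09 to -0.09, -0.10 and -0.06, and in dog 18-2 from 0.11 to 0.00. The flat upper end of the count distribution given above covers the same genes, and whether it made their fold changes too small was not tested.

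**Figure D4:**
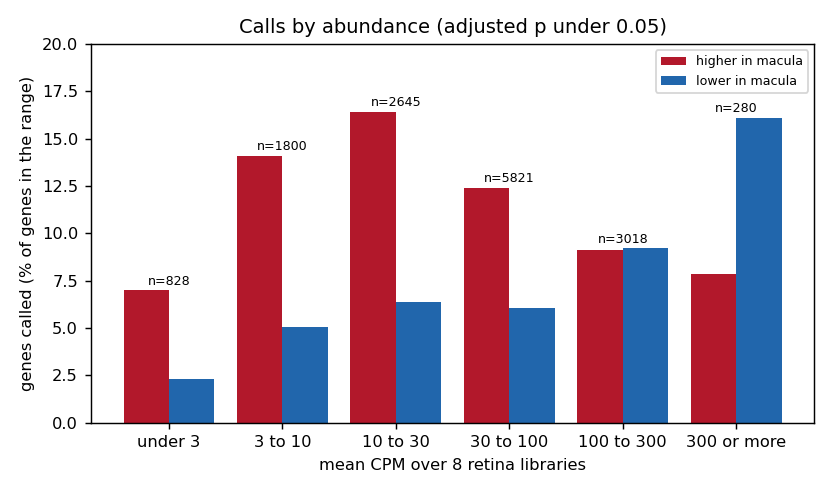
Share of genes called higher (red) or lower (blue) in the macula (y axis, percent of genes in the range) for 6 ranges of mean CPM over the 8 retina libraries (x axis), with the number of genes above each pair of bars. Higher genes prevail up to 100 CPM, and at 300 CPM or more 16.1% of 280 genes were lower against 7.86% higher.

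Genes were grouped by where they were expressed, from a fit over the 16 retina and RPE/choroid libraries of the 4 dogs in which tissue was balanced over regions. Retina-preferential genes, at least 4-fold higher in retina at an adjusted p under 0.05 in edgeR, were 11.7% of the genes tested but 38.7% of the genes at least 2-fold higher in the macula, 133 of 1683 (7.90%) against 2.39% of all genes. Of these retina-preferential genes 28 (1.66%) were at least 2-fold lower, against 0.681% of all. Genes shared between tissues (under 2-fold apart) were 64.4% of those tested, and 63 (0.680%) were at least 2-fold higher and 23 (0.248%) at least 2-fold lower. Of 2036 RPE/choroid-preferential genes only 1166 passed the filter in retina. These had 90 (7.72%) at least 2-fold higher and 38 (3.26%) at least 2-fold lower. Their median level in retina was 7.64 CPM, against 29.0 CPM for the retina-preferential and 61.9 CPM for the shared genes. Among genes that passed the filter, large differences were thus commoner at both tissue extremes than among shared genes, and commoner at low levels. The classes and levels were not separated from each other here. A gene of low level can also pass the filter only through the region where it is high, and the part of this was not tested. The class counts moved in both directions with the dogs and the filter. They are not shares, which with all dogs were close for higher genes (7.90% and 7.72%). Without dog 18-2 the RPE/choroid-preferential genes had 124 higher and 53 lower. The retina-preferential genes had 102 and 41, which reverses the order of the counts for higher genes. With no low-count filter the RPE/choroid-preferential counts were 124 and 43. That class then holds up to 2036 genes instead of 1166, so these counts do not show a larger share. Without dog 18-6 the RPE/choroid-preferential count of higher genes was 56, and without dog 18-7 that of lower genes was 25. Without dog 18-9, whose peripheral library was highest for the RPE/choroid list, the RPE/choroid-preferential counts were 65 and 36. By DESeq2 the RPE/choroid-preferential counts were 54 and 25, and without the block 48 and 13, where the retina-preferential genes had 112 and 18.

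At the level of whole libraries the same classes differed little. Retina-preferential genes together took 11.4%, 11.5%, 11.3% and 10.9% of the counts in the macula of dogs 18-2, 18-6, 18-7 and 18-9 and 10.4%, 11.1%, 10.7% and 10.4% in their periphery. The share was higher in the macula in 4 of 4 dogs, by a mean of 0.645 ± 0.289 percentage points (SD, n = 4 pairs). An exact two-sided sign-flip permutation test gave p = 0.125, the smallest that 4 pairs allow, and an adjusted p of 0.312 over 5 library measures. RPE/choroid-preferential genes took 1.73% ± 0.24 of macular and 1.57% ± 0.14 of peripheral counts (SD, n = 4 each), higher in the macula in 3 of 4 dogs (exact permutation p = 0.375, adjusted p = 0.375). Of the 200 genes with the highest retina-to-RPE/choroid ratio, a list chosen partly on these libraries, 103 were higher and 16 lower in the macula (edgeR), where 12.3% of all genes tested were higher and 6.63% lower. The list's median log2 fold change was 0.45, against -0.01 over all genes. Of the 200 at the RPE/choroid end only 17 passed the filter in retina, of which 1 was called, lower in the macula. The median log2 fold change of these 17 was -0.72, towards the periphery. That median includes the peripheral library of dog 18-9, in which the list summed to 222 CPM, and the part of this library was not tested.

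The number of genes with at least 1 count was higher in the macula in 4 of 4 dogs, at 18429 ± 299 against 18243 ± 243 (SD, n = 4 each; exact permutation p = 0.125, adjusted p = 0.312). The macular libraries were also the deeper ones. At a common depth of 4664101 counts the expected numbers were 18034 ± 97.4 and 17974 ± 82.5 (SD, n = 4 each), higher in the macula in 3 of 4 dogs (exact permutation p = 0.375). With 4 pairs this exact permutation test cannot go below p = 0.125, so it could not have called a difference in the number of genes detected at any depth. The 100 most abundant genes took 5.12% ± 0.23 of macular and 5.31% ± 0.21 of peripheral counts (SD, n = 4 each), with a higher share in the macula in 1 of 4 dogs (exact permutation p = 0.25, adjusted p = 0.375). Regional expression of a gene in one region alone was not seen above the low-count filter. Counts in macular libraries alone were found for 1240 identifiers and in peripheral libraries alone for 1038, and these averaged at most 1.63 and 0.814 CPM in their region.

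Each dog was then left out in turn, and the genes called in the other 3 dogs (among those tested in both fits) were read in the pair of libraries that had taken no part in the call. Among genes called higher without dog 18-6, 97.5% were also higher in the macula of dog 18-6 itself. The share was 97.4% for dog 18-7, 98.5% for dog 18-9 and 93.9% for dog 18-2. Over all genes tested, 47.6% to 50.4% were higher in the macula of these dogs. The median log2 difference in the left-out dog was 0.53 for dog 18-6, 0.57 for dog 18-7 and 0.58 for dog 18-9, somewhat below the medians of 0.69, 0.75 and 0.72 in the fits that made the calls. In dog 18-2 it was 0.60, above the 0.51 of the fit.

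Genes called lower mostly kept their direction in 3 of the dogs. Among those called without dog 18-6, 97.5% were lower in its macula, and the share was 99.2% for dog 18-7 and 95% for dog 18-9. The median differences in the left-out dog were -0.53, -0.52 and -0.34, against -0.53, -0.55 and -0.54 in the fits that made the calls. The difference was thus clearly smaller in dog 18-9. In dog 18-2 69.8% of 1868 genes called lower by the other dogs were lower, with a median of -0.16 against -0.27 in the fit. The lists for dogs 18-6, 18-7 and 18-9 were shorter, at 448, 394 and 584 genes, and held larger differences in their fits. The share of dog 18-2 is therefore not on a like list, and the part of this was not tested. The 564 genes that went the other way in dog 18-2 had a median difference of 0.17 there and of -0.22 in the other dogs. Their median level was 108.2 CPM, above the 81.1 CPM of the 1304 genes that did fall in dog 18-2.

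Dog 18-2 also had the widest spread of regional differences. The lower and upper quartiles of its log2 differences were -0.21 and 0.27, against -0.16 and 0.16 in dog 18-6, -0.12 and 0.18 in dog 18-7 and -0.12 and 0.16 in dog 18-9. Differences of at least 2-fold numbered 714 higher and 189 lower in dog 18-2, 435 and 268 in dog 18-6, 354 and 186 in dog 18-7 and 403 and 189 in dog 18-9. The pair of dog 18-2 had the largest gap in depth, at 1.21-fold, and the largest gain in the share of retina-preferential genes, at 1.06 percentage points against 0.437 to 0.635 in the other dogs. The part of either in the result was not tested. Per-gene differences of the dogs correlated with each other at 0.46 to 0.65 (Pearson, across genes, which share libraries and depth), and those of dog 18-2 with the mean of the others at 0.59, against 0.68 to 0.70 for the other dogs.

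**Figure D5:**
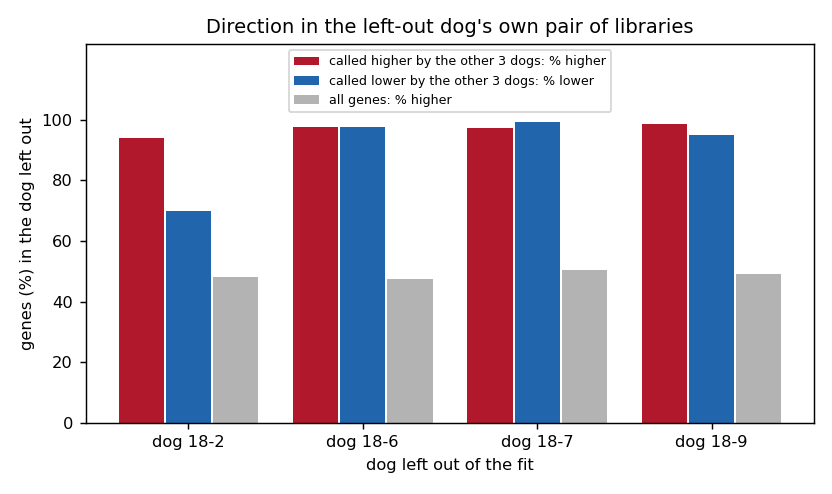
For each dog left out of the fit (x axis), the share of genes (y axis, percent) that were higher in its own macula among genes called higher by the other 3 dogs (red), lower among genes called lower (blue), and higher among all genes (grey). Red bars stand at 93.9% to 98.5% and blue bars at 95% to 99.2%, except for dog 18-2, whose blue bar is at 69.8%. That blue bar rests on 1868 genes, and those of the other dogs on 394 to 584 genes.

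The genes called in retina were also read in the RPE/choroid behind it, which was measured in other libraries of the same dogs. The 1765 genes higher in the macular retina had a median log2 fold change of 0.00 in RPE/choroid and the 954 lower genes one of 0.06, against 0.02 over all genes. A median near 0 leaves room for single genes that differ in either direction, as ENSCAFG00000016501 did with 1.00 ± 0.17 (SE). For genes at least 2-fold higher and lower in the macular retina the medians in RPE/choroid were -0.10 and 0.12. In the interaction test, which called 19.2% of 15577 genes in either direction (edgeR, adjusted p under 0.05), the regional difference was more positive in retina for 722 of the 1765 higher genes (40.9%) and more negative for 471 of the 954 lower genes (49.4%). These shares rest in part on the retina libraries that made the calls. For the remaining genes the test did not show that the tissues differed, which does not show that they moved alike.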

How the data were processed

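Per the labels' protocols, DNase-treated total RNA was made into directional Illumina libraries. The authors deposited raw read counts, as whole numbers, for 30951 identifiers per library. Tools listed in the submitters' processing notes, with no roles, are featureCounts 2.0.0, HISAT2 2.1.0, SAMtools, FastQC 0.11.8 and Trimmomatic 0.39. Not given in the sources used here are the build, the annotation, the strand setting and whether duplicate reads were removed, so values of overlapping or antisense genes are uncertain.

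The 8 retina libraries were fitted with edgeR 4.0.16 in R 4.3.3 (TMM, filterByExpr by region, glmQLFit and glmQLFTest, dog as block), with Benjamini-Hochberg adjustment over 14392 genes and a threshold of 0.05. SEs were taken from the fold change and the F statistic. CPM was scaled by total counts, and log2 CPM used TMM and a prior count of 2. Pairing came from the labels, and same-dog libraries deviated together (correlations of 0.43 to 0.56). No library repeated another (chi-square per degree of freedom of at least 3.61 between same-group pairs). Tissue classes and the interaction used 16 libraries, the latter with each combination of dog and tissue as a block. Intervals for counting error are not given, and totals set the precision of low counts.

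Identifiers were named, with no symbols at hand, as the 2 in each direction with the smallest p among genes past the threshold, at least 2-fold, at a mean of at least 10 CPM and alike in all dogs. The comparison, lists and tests were chosen with earlier results of these data known. The planned marker lists needed symbols and were not used. Alternatives were no block, RLE normalization, no low-count filter, DESeq2 1.42.0 and each dog left out. They were applied to the 2-fold, class and abundance counts after the data had been seen.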

Additional observations from a re-analysis of the deposited data

Results flagged for a closer look

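Among 26 groups of 4 values looked at for 1 library far from the rest (chance gives about 1 in 20), 4 were found. ENSCAFG00000011211 in dog 18-7 had 60.8 CPM in its peripheral and 2.43 CPM in its macular library, with a gap to the next dog of 0.898 and 0.876 of each group's range. The most abundant identifier of the peripheral library of dog 18-6 had 1054 CPM, a gap of 0.944 of the range. The 200-gene RPE/choroid list summed to 221.9 CPM in the peripheral library of dog 18-9, a gap of 0.947 of the range. The regional difference differed between retina and RPE/choroid by the interaction term, on the log2 scale, by 0.85 for ENSCAFG00000016501 and by 1.19 for ENSCAFG00000015138. The term was -4.31 for ENSCAFG00000011211, which had only 6 counts in RPE/choroid, too few to measure a regional difference there.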

How the results depend on the processing

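Calls were 2719 in all, 1765 higher and 954 lower. In the fit with no replicate block, they were 1224, 962 and 262, and every one of the 1224 was among the 2719. DESeq2 gave 1381, 974 and 407, of which 1365 were among the 2719, with 559 genes given no adjusted p. With 1 dog left out the totals ran from 1519 to 3765, the higher genes from 1123 to 1894 and the lower genes from 396 to 1871, and the share of higher genes among the calls from 50.3% (without dog 18-2) to 73.9% (without dog 18-7), against 64.9% with all dogs. Fits with 3 dogs have fewer samples, and the cause of the rise without dog 18-2 was not tested. RLE normalization gave 2752 calls (61.6% higher) and no low-count filter 2742. The 4 named identifiers kept direction and call in all 8 alternatives, which follows largely from their choice by smallest p and shared direction. Low counts limit the genes under 10 CPM, and the flat upper end of the count distribution limits what can be read from genes above 300 CPM.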
